A study of Mus musculus with 15 samples.

Results

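The tissue inhibitors of metalloproteinases (TIMPs) and the reversion-inducing cysteine-rich protein *Reck* were followed across kidney and lung of mice with induced fibrosis. The members were chosen by gene symbol alone, as the rows of the gene count table named *Timp1*, *Timp2*, *Timp3*, *Timp4* and *Reck*, which are 5 of its 56748 genes. RNA was measured in 15 libraries of 5 groups with 3 mice each, all male wild-type C57Bl/6 mice. In kidney, WTK mice had received vehicle, with no antibody named in the labels, whereas the other 2 groups were injured with folic acid (200 mg/kg) and then given, at 10 mg/kg, either control IgG (IgGK) or LepAb, an antibody that neutralizes leptin (LepK). Mice of the kidney experiment were 10 to 12 weeks old and were euthanized on day 28. In lung, IgGL and LepL mice, 12 weeks old, had received bleomycin at 1.5 units/kg together with control IgG or LepAb at 10 mg/kg, and were euthanized on day 14. In both experiments antibody was injected into the peritoneum every other day. Per the study's methods, dosing ended before day 28 in the kidney experiment and lasted 14 days, up to euthanasia, in the lung experiment. Lung without bleomycin was not analyzed here, so an injury effect can be read in kidney alone. Organ, injuring agent, day and time since the last dose differ together between the experiments.

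TIMPs are small secreted proteins that block the active site of matrix metalloproteinases (MMPs), the zinc enzymes that cut collagens and other matrix proteins. *Timp1* is the classical inducible member and is often raised in scarring organs, *Timp2* both inhibits MMPs and assists the activation of pro-MMP2 by membrane-bound MMP14, *Timp3* is held in the matrix and also inhibits ADAM and ADAMTS proteases such as ADAM17, and *Timp4* is best known from heart and adipose tissue. RECK is a membrane-anchored inhibitor of MMPs that also forms part of a receptor complex for WNT7 with the adhesion receptor encoded by *Adgra2*.

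Total counts per library ranged from 25913969 to 32321976 in kidney and from 29974718 to 38924788 in lung, so that 1 count equaled 0.0252 to 0.0415 normalized CPM (read counts scaled to a common library size). The organ labels fitted their defining markers, since *Umod*, a tubule gene, had 2 counts over the 6 lung libraries and *Sftpc*, an alveolar type 2 gene, had 4 counts over the 9 kidney libraries. IgGL replicate 3 had the highest *Timp1* and the highest summed neutrophil markers of the lung libraries. Of all replicate pairs, IgGL replicates 1 and 3 differed most over all genes (chi-square of 87.4 per gene). Values for *Timp1* without single lung libraries are given beside the lung result. Kidney and lung were scaled separately, so levels are compared within an organ. Calls needed a log2 fold change beyond 0.5 in either direction together with an adjusted p (Benjamini-Hochberg, over the 19593 genes tested in kidney or the 19617 in lung) under 0.05 in edgeR's quasi-likelihood test. All 5 members had enough counts to be tested in both organs.

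In the GRCm39 coordinates of the deposited table, *Timp1* (ENSMUSG00000001131) lies on chromosome X at 20736405 to 20740974 and *Timp2* (ENSMUSG00000017466) on chromosome 11 at 118191895 to 118246566. *Timp3* (ENSMUSG00000020044) lies on chromosome 10 at 86136236 to 86185370, *Timp4* (ENSMUSG00000030317) on chromosome 6 at 115218853 to 115229166, and *Reck* (ENSMUSG00000028476) on chromosome 4 at 43875530 to 43944806. The annotated spans of *Timp1*, *Timp3* and *Timp4* fall inside those of the synapsin genes *Syn1*, *Syn3* and *Syn2*, which are transcribed from the opposite strand. The libraries kept no strand, so reads from the shared stretches cannot be told apart, and the synapsin values are given below beside the member they touch. *Cep295nl* lies within *Timp2* on the same strand and had 3 to 205 counts per group, against 5044 to 93773 for *Timp2*. *Gm17482*, which also spans *Timp4*, had 0 counts in every group, and an RNA gene without a symbol lies within *Reck*. No stretch of 25 bases was shared between the transcripts of any pair of members.

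The promoters of the 3 members that changed in injured kidney are shown because *Timp1* and *Timp2* rose together there while *Timp3* fell. The sequences are from RefSeq (GRCm38.p6, another build than that of the count table), where all 5 members were matched. They run 5′ to 3′ on the strand of the gene and end at the last base before the annotated start, except for the second, which lies just after the start of *Timp1*. They come from chrX:20869916-20870165 (plus strand) and chrX:20870184-20870213 (plus strand) for *Timp1*, chr11:118355412-118355661 (minus strand) for *Timp2* and chr10:86300162-86300411 (plus strand) for *Timp3*. Capitals mark matches to the motifs searched.
Timp1 upstream: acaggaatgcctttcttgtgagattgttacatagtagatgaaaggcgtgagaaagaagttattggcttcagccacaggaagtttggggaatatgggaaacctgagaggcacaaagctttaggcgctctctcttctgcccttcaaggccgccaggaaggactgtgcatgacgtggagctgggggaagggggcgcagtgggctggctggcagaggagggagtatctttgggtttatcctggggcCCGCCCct
Timp1 after start: tgggtggaTGAGTAAtgcgtccaggaagcc
Timp2 upstream: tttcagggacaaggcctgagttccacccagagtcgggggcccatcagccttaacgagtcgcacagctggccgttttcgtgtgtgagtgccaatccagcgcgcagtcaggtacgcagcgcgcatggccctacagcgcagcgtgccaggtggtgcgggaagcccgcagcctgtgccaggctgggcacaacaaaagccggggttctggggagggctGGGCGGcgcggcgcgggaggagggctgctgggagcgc
Timp3 upstream: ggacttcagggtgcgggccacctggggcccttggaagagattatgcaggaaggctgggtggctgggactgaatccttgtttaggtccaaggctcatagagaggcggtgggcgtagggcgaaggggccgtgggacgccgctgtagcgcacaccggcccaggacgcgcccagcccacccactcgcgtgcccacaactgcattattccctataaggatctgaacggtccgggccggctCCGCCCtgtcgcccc

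The motifs were searched on both strands over the 250 bases upstream and the first bases after the start of each gene. They were AP-1 (TGANTCA), an AP-1 variant (TGAGTAA), STAT (TTCNNNGAA), SMAD (CAGACA) and Sp1 (GGGCGG), and the matches found did not overlap one another. TGAGTAA was present in *Timp1*, at positions 27 to 33 after the start, and in 2.68% of 32851 promoters of the same length. GGGCGG or its reverse complement CCGCCC was present in *Timp1*, *Timp2*, *Timp3* and *Reck*, and in 35.7% of all promoters. CAGACA, as its reverse complement TGTCTG, was found in *Timp4*, and in 21% of all promoters. The letters of TGANTCA and TTCNNNGAA, held by 7.81% and 8.3% of all promoters, were not in the windows of the 5 members.

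In vehicle-treated kidney, transcripts of the family were mostly *Timp3*. Compared per kilobase of gene length, which allows levels to be set side by side between genes, *Timp3* had 120 ± 6.30 normalized CPM per kilobase in WTK (SD, n = 3), followed by *Timp2* at 16.8 ± 2.61, *Reck* at 2.5 ± 0.37, *Timp1* at 0.82 ± 0.21 and *Timp4* at 0.15 ± 0.05. The ranges of these 5 genes did not overlap in WTK. By this measure *Timp3* was in place 446 of 16898 protein-coding genes with a count in WTK, and *Timp1* in place 11658. In IgGK the order was *Timp2* (57.5 ± 5.89), *Timp3* (37.0 ± 3.81) and *Timp1* (28.8 ± 4.67), where the ranges of *Timp3* and *Timp1* overlapped, and in LepK *Timp3* (45.5 ± 8.55) and *Timp2* (40.8 ± 8.37), with overlapping ranges, lay above *Timp1* (11.6 ± 3.97).

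**Figure D1:**
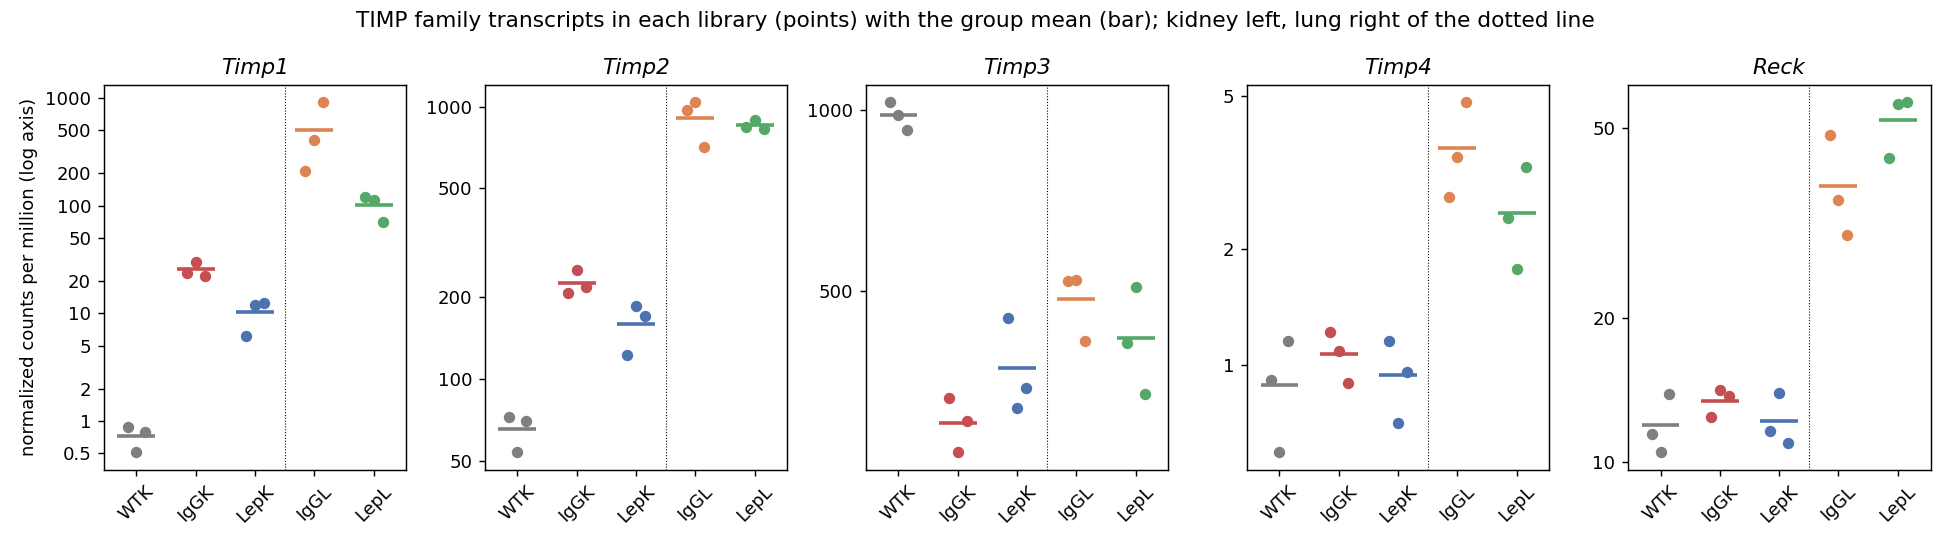
Normalized CPM (log axis, a separate scale in each panel) of the 5 members in every library. Each point is 1 mouse and each bar a group mean, with kidney groups left and lung groups right of the dotted line. The IgGK and WTK points are apart for *Timp1*, *Timp2* and *Timp3*, and the IgGL points of *Timp1* spread from 208 to 911.

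The effect of folic acid injury was read from IgGK against WTK. *Timp1* and *Timp2* rose and *Timp3* fell in the injured kidney, whereas *Timp4* and *Reck* did not pass the test. Thus 2 of the 5 members were called higher and 1 lower, where 37.3% of all genes tested were called, 21.7% higher and 15.6% lower. The libraries of the 2 groups did not overlap for 3 members and for 62.6% of all genes. With this share of all genes changing, a call of 3 in 5 members is not in itself particular to the family. The median log2 fold change over the members was 0.26 and that over all genes 0.04.

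*Timp1* had 0.872, 0.513 and 0.793 normalized CPM in the 3 WTK libraries, from 21, 13 and 22 counts. In IgGK it had 23.9, 30.3 and 22.5 normalized CPM. Every IgGK library was far above every WTK library, and the fold change was 35.0 (log2 5.13, standard error 0.30, adjusted p = 7.27e-08 from edgeR). In place among protein-coding genes, *Timp1* moved from 11658 in WTK to 1528 of 17494 in IgGK.

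*Timp2* had 72.4, 53.7 and 70.0 normalized CPM in WTK and 206, 250 and 216 in IgGK. The groups did not overlap, with a fold change of 3.43 (log2 1.78, standard error 0.15, adjusted p = 9.37e-07 from edgeR). *Timp3* had 1030, 982 and 927 normalized CPM in WTK and 331, 269 and 303 in IgGK. It fell by 1.70 on the log2 scale, to a level 0.307 times that of WTK (standard error 0.12, adjusted p = 2.45e-07 from edgeR).

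*Timp4* was low in kidney, with 15 to 38 counts per WTK or IgGK library and group means of 0.89 ± 0.28 normalized CPM in WTK and 1.07 ± 0.16 in IgGK. Its log2 fold change was 0.26 (standard error 0.39, adjusted p = 0.604 from edgeR), a difference not detectable at this depth. *Reck* had 11.9 ± 1.76 normalized CPM in WTK and 13.4 ± 0.91 in IgGK, with overlapping libraries (log2 fold change 0.17, standard error 0.14, adjusted p = 0.316 from edgeR). For *Reck* the result depended on the scaling: with library size alone, under which the median of all genes shifts to 0.48, its value was 0.61 and it was called (adjusted p = 0.003 from edgeR, against up to 0.41 under the other settings).

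The synapsin genes around *Timp1* and *Timp3* had fewer reads than the member in every library, but the margin was small for *Timp1* in WTK. *Syn1*, around *Timp1*, had 0.14 ± 0.14 normalized CPM in WTK and 1.03 ± 0.12 in IgGK and was called higher (log2 2.82, adjusted p = 0.00448 from edgeR), from 11 and 103 counts over each group. *Timp1* had 56 and 2564 counts over the same groups, and in WTK replicate 2 *Syn1* had 7 counts against 13 for *Timp1*. *Syn3*, around *Timp3*, fell like it, from 10.4 ± 0.91 to 3.77 ± 0.85 normalized CPM (log2 -1.46, adjusted p = 0.000162 from edgeR). *Syn2*, around *Timp4*, was called lower in IgGK (log2 -0.51, adjusted p = 0.0231 from edgeR) with 7.04 ± 0.38 normalized CPM in WTK, a level above that of *Timp4*. Whether reads were counted for the wrong gene of a pair was not tested.

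The effect of leptin neutralization in injured kidney was read from LepK against IgGK. *Timp1* fell, and *Timp2* was lower in every LepK library but remained just short of the fold threshold. Of the 5 members 1 was called lower, where 10.4% of all genes tested were called, 4.38% higher and 5.99% lower. Libraries did not overlap for 2 members and for 37.4% of all genes. For the higher direction the count from edgeR was 0, with 1 member (*Timp3*) at an unadjusted p under 0.05 and 0 members called by DESeq2.

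*Timp1* had 6.22, 12.1 and 12.6 normalized CPM in LepK. All 3 values lay below the lowest IgGK library (22.5), and the log2 fold change was -1.32 (standard error 0.23, adjusted p = 0.00189 from edgeR), a level 0.401 times that of IgGK. LepK nevertheless remained above WTK, with a fold change of 14.1 (log2 3.81, standard error 0.31, adjusted p = 4.04e-06 from edgeR). *Syn1* had 0.42 ± 0.14 normalized CPM in LepK and a log2 fold change of -1.30 against IgGK (adjusted p = 0.166 from edgeR), which did not pass the test.

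*Timp2* had 122, 184 and 170 normalized CPM in LepK, all below the lowest IgGK library at 206. Its log2 fold change was -0.50 (-0.497 unrounded, standard error 0.15, adjusted p = 0.03 from edgeR), so the p passed and the fold did not. *Timp3* had 450, 319 and 344 normalized CPM in LepK, overlapping IgGK (log2 fold change 0.30, standard error 0.12, adjusted p = 0.0943 from edgeR). The log2 fold changes of *Timp4* and *Reck* were -0.18 and -0.14 (adjusted p = 0.786 and 0.503 from edgeR). *Syn2*, around *Timp4*, was called higher in LepK than in IgGK (log2 0.65, adjusted p = 0.0173 from edgeR). *Syn3*, around *Timp3*, did not pass the test (log2 0.35, adjusted p = 0.34 from edgeR).

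Against WTK, the antibody-treated kidney still had 2 members called higher and 1 lower, where 22.5% of all genes tested were called, 15.2% higher and 7.3% lower. Libraries did not overlap for 3 members and for 50.2% of all genes. *Timp2* was higher by 1.28 on the log2 scale (standard error 0.15, adjusted p = 4.60e-05 from edgeR). *Timp3* was lower (log2 fold change -1.40, standard error 0.12, adjusted p = 5.95e-06 from edgeR). Of the synapsin genes, *Syn3* was called lower in LepK than in WTK (log2 -1.12, adjusted p = 0.00216 from edgeR), and *Syn1* and *Syn2* did not pass the test. *Timp4* and *Reck* had log2 fold changes of 0.08 and 0.03 (adjusted p = 0.897 and 0.903 from edgeR). The kidney comparisons share libraries, LepK and IgGK against WTK the WTK libraries and the first 2 comparisons the IgGK libraries, so their values are given side by side and are not independent of one another.

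**Figure D2:**
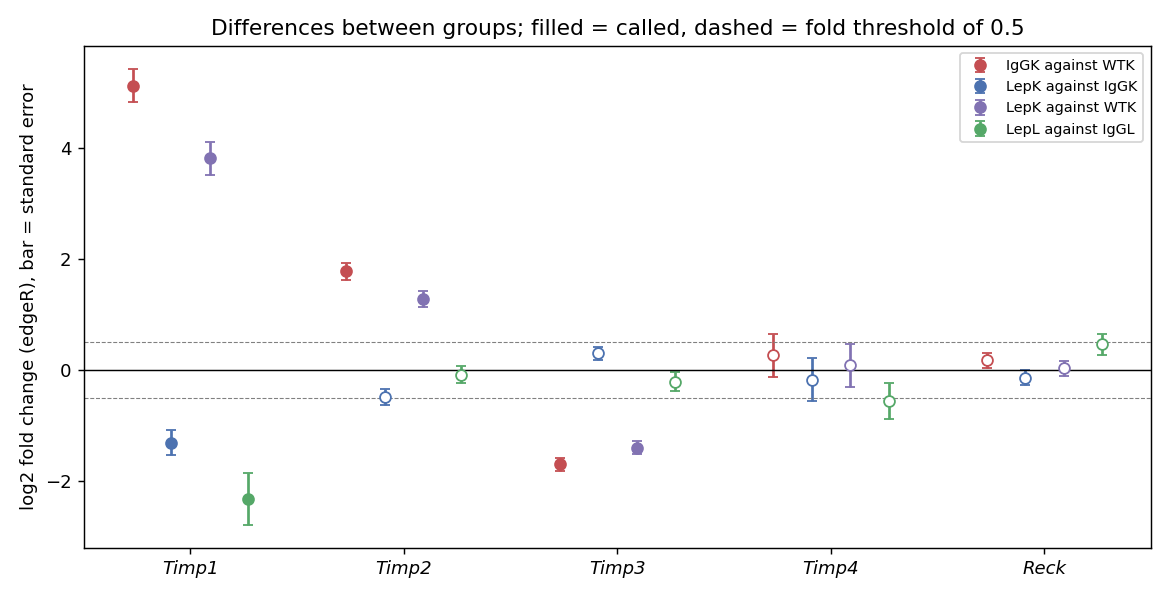
Log2 fold changes of the 5 members from edgeR in the 3 kidney comparisons and the lung comparison. Bars are standard errors, filled points are called, open points are not, and dashed lines mark the fold threshold of 0.5. *Timp1* is the member called in each of the 4 comparisons, and *Timp2* in LepK against IgGK sits at the threshold.

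The effect of leptin neutralization in bleomycin-treated lung was read from LepL against IgGL. *Timp1* was lower in every LepL library and was called, and the other members did not pass the test. Here 1 of 5 members was called lower, where 4.14% of all genes tested were called, 1.78% higher and 2.36% lower. The number of lung calls changed when a library was left out, and such fits also have fewer libraries from which to estimate the spread. Over all genes 812 were called, against 0 when replicate 2 of either group or LepL replicate 3 was left out, 4 without IgGL replicate 3, 22 without LepL replicate 1 and 3539 without IgGL replicate 1. Libraries did not overlap for 1 member and for 33.3% of all genes. For the higher direction the count from edgeR was 0, with 1 member (*Reck*) at an unadjusted p under 0.05 and 0 members called by DESeq2.

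*Timp1* had 208, 411 and 911 normalized CPM in IgGL and 120, 113 and 71.2 in LepL. The groups did not overlap, but the IgGL values spread widely, and the log2 fold change was -2.33 (standard error 0.47, adjusted p = 0.0387 from edgeR), a level 0.199 times that of IgGL. With a library left out the call held in 1 of 6 fits, and the sign was kept in all. Without IgGL replicate 3 the value was -1.61 (adjusted p = 0.0548 from edgeR), and without IgGL replicate 2 it was -2.46 (adjusted p = 0.158 from edgeR). Without LepL replicate 1, 2 or 3 the adjusted p from edgeR was 0.0783, 0.125 and 0.195, and without IgGL replicate 1 the call held, at -2.70. The order of the mean levels differed between the lung groups. In IgGL *Timp1*, at 575 ± 407 normalized CPM per kilobase, was in place 40 of 18351 protein-coding genes, and its range overlapped that of *Timp2* (233 ± 44.5). In LepL *Timp2*, at 219 ± 8.82, lay above *Timp1*, at 114 ± 29.9, in every library, and the 2 genes were in places 142 and 333 of 18104. *Timp3* followed in both groups, with 59.4 ± 7.65 in IgGL and 51.2 ± 10.5 in LepL, ahead of *Reck* and *Timp4*.

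*Timp2* had 974, 1036 and 709 normalized CPM in IgGL and 841, 893 and 828 in LepL, so the LepL libraries fell within the IgGL range (log2 fold change -0.09, standard error 0.16, adjusted p = 0.761 from edgeR). *Timp3* had 519, 521 and 412 in IgGL and 409, 506 and 336 in LepL (log2 fold change -0.22, standard error 0.17, adjusted p = 0.447 from edgeR). *Timp4* had 2.74, 3.47 and 4.82 in IgGL and 2.42, 1.78 and 3.27 in LepL (log2 fold change -0.56, standard error 0.33, adjusted p = 0.308 from edgeR). *Syn1*, around *Timp1*, was lower in every LepL library but did not pass the test (log2 -0.94, adjusted p = 0.117 from edgeR). *Syn2* and *Syn3* had log2 fold changes of 0.20 and 0.07 (adjusted p = 0.668 and 0.936 from edgeR).

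*Reck* was the 1 member with a positive log2 fold change in lung, which did not pass the test. It had 48.4, 35.4 and 29.8 normalized CPM in IgGL and 43.3, 56.2 and 56.6 in LepL, and the highest IgGL library lay above the lowest LepL library. Its log2 fold change was 0.46 (standard error 0.18, unadjusted p = 0.0353 and adjusted p = 0.152 from edgeR). Without IgGL replicate 1 it was 0.68 and called (adjusted p = 0.0145 from edgeR).

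Whether the antibody effect differed between the organs was tested as the effect in kidney minus that in lung, with edgeR on the 12 IgG and LepAb libraries together. Of the 5 members 0 were called at an adjusted p under 0.05, where 7.12% of the 21488 genes tested were called, 3.51% higher and 3.62% lower. Here 2 members had an unadjusted p under 0.05 and DESeq2 called 0. The differences, as kidney minus lung on the log2 scale, were 1.04 for *Timp1* (standard error 0.59, adjusted p = 0.291), -0.38 for *Timp2* (adjusted p = 0.304), 0.55 for *Timp3* (adjusted p = 0.168), 0.41 for *Timp4* (adjusted p = 0.641) and -0.57 for *Reck* (adjusted p = 0.152). Without the filter on low counts *Timp1* and *Timp3* were called (adjusted p = 0.00775 and 0.0493 from edgeR). Without IgGL replicate 1 *Timp1* and *Reck* were called, at 1.41 and -0.79 (adjusted p = 0.0447 and 0.018 from edgeR).

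Composition within a library does not depend on scaling between libraries. The share of *Timp1* in the summed *Timp1* to *Timp4* counts per kilobase was 0.672%, 0.428% and 0.672% in WTK and 22.3%, 26.0% and 21.4% in IgGK. In LepK it was 7.47%, 13.6% and 14.1%, between the other kidney groups and apart from both. In lung it was 42.8%, 58.4% and 81.5% in IgGL and 33.7%, 30.4% and 24.0% in LepL. The mean share was thus higher by 22.6 percentage points in IgGK than in WTK, and lower by 11.5 points in LepK than in IgGK (mean 11.7% ± 3.69 against 23.2% ± 2.40). In LepL it was lower by 31.5 points than in IgGL (29.4% ± 4.95 against 60.9% ± 19.5). Each comparison had an exact two-sided permutation p = 0.1, the smallest that 3 against 3 allows, so none could pass 0.05.

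*Timp3* made up 87.2% ± 1.90 of the TIMP transcripts (SD, n = 3) in WTK, and this share was 30.1% ± 4.44 in IgGK and 46.7% ± 10.7 in LepK. *Timp2* made up 12.1% ± 1.73, 46.5% ± 2.51 and 41.4% ± 7.16 of them, and so was the leading member in IgGK. In lung *Timp2* held 31.2% ± 15.7 in IgGL and 57.3% ± 5.41 in LepL. *Timp4* stayed at or under 0.208% in every library. These shares rest on division by gene length, since *Timp1* is the shortest member, listed with 888 bases. From undivided counts the same differences in the share of *Timp1* were 4.57, -2.71 and -18.6 percentage points.

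**Figure D3:**
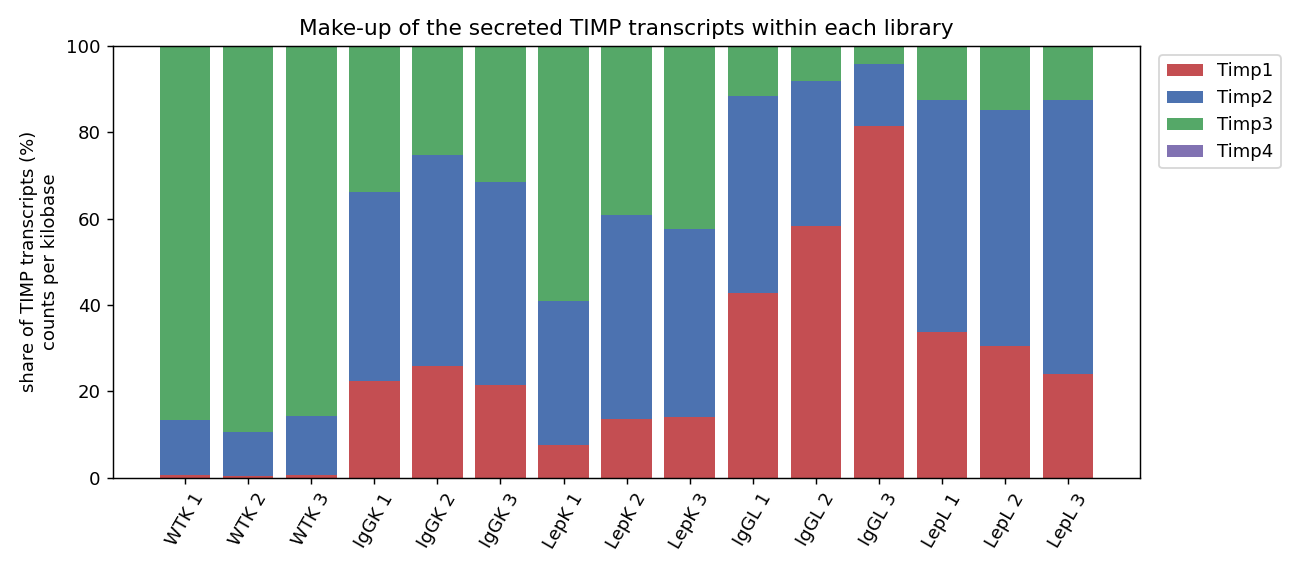
Share of each secreted TIMP in the summed *Timp1* to *Timp4* counts per kilobase (%), 1 bar per library. *Timp3* fills 85.7% to 89.3% of the WTK bars and *Timp1* 42.8% to 81.5% of the IgGL bars, while *Timp4* is too small to be seen.

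Most MMP genes moved in the direction of *Timp1*, and opposite to *Timp3*, in injured kidney. Of 23 MMP genes listed, 17 were tested. In this and the later lists, genes counted as rising, falling, higher or lower are called genes, unless said to be so in value. In IgGK against WTK 14 of the 17 rose, where 21.7% of all genes were called higher. In value 16 were higher and 1 lower, *Mmp13*, at 3.04 ± 0.73 normalized CPM in WTK and 1.79 ± 0.54 in IgGK, which was not called. The median was 2.66 (log2 fold change) for the 17 genes, against 0.04 over all genes. *Mmp27*, *Mmp24* and *Mmp7* had 0, 2 and 3 counts over the WTK libraries. They passed the filter through the injured groups, could come out only as higher, and are part of this count and median. *Mmp12*, the macrophage elastase, went from 3.40 ± 0.43 to 112 ± 23.2 normalized CPM (log2 5.04, adjusted p = 2.44e-08 from edgeR). *Mmp7*, matrilysin, had 3 counts over the WTK libraries and 1866 over the IgGK libraries, a ratio of 480 with a 95% counting interval from 164 to 2330. *Mmp14*, the membrane protease that *Timp2* binds, rose from 10.9 ± 0.07 to 141 ± 10.4 normalized CPM (log2 3.69, adjusted p = 1.79e-08 from edgeR), and *Mmp2*, the gelatinase it activates, rose from 1.78 ± 0.42 to 20.6 ± 1.71 (log2 3.52, adjusted p = 1.54e-07 from edgeR). *Mmp9*, whose proenzyme TIMP1 binds, rose by 1.95 on the log2 scale (adjusted p = 0.000359 from edgeR).

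Under LepAb in kidney 9 of the 17 MMP genes fell, where 5.99% of all genes were called lower. All 17 were lower in value, with a median of -0.93 over the list and -0.01 over all genes. The call of *Mmp27* was lost in each of 6 fits with a library left out. Among called genes with a mean of at least 1 CPM, *Mmp12* and *Mmp7* fell most, by 2.59 and 1.78 on the log2 scale (adjusted p = 5.62e-05 and 0.000648 from edgeR). *Mmp14* fell by 0.93 and *Mmp2* by 1.43 on the log2 scale (adjusted p = 0.00126 and 0.00065 from edgeR), and *Mmp9* did not pass the test, at -0.93 (adjusted p = 0.0591 from edgeR). In LepK against WTK 11 of the 17 were called higher, with a median of 1.72, where 15.2% of all genes were called higher. *Mmp27*, *Mmp24* and *Mmp7* are again part of this count and median and could come out only as higher there. In lung 4 of 17 tested MMP genes fell and 1 rose, where 2.36% of all genes were called lower and 1.78% higher. In value 10 of the 17 were lower and 7 higher, with a median of -0.27 over the list and 0.00333 over all genes. *Mmp8*, the neutrophil collagenase, and *Mmp19* fell by 1.44 and 1.43 (adjusted p = 0.0354 and 0.0499 from edgeR), *Mmp3* and *Mmp14* fell by 1.0 and 0.87 (adjusted p = 0.0327 and 0.0365 from edgeR), and *Mmp15*, a membrane-type protease, rose by 1.34 on the log2 scale (adjusted p = 0.035 from edgeR). These 5 lung calls held without IgGL replicate 1 and ended, with the sign kept, when any other lung library was left out.

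The summed TIMP transcripts were set against the summed MMP transcripts within each library, both in counts per kilobase. The ratio was 13.4, 11.3 and 10.7 in WTK and 1.33, 1.13 and 1.23 in IgGK. In LepK it was 2.70, 1.86 and 2.02, above every IgGK library and below every WTK library. The log2 ratio differed by -3.26 in IgGK against WTK and by 0.82 in LepK against IgGK (exact two-sided permutation p = 0.1 each, the smallest possible). In lung the ratio was 1.98, 2.45 and 4.44 in IgGL and 1.85, 2.03 and 2.0 in LepL, and the groups overlapped (log2 difference -0.51, exact two-sided permutation p = 0.3). Without IgGL replicate 3 the lung difference was -0.17. Without division by length the lung difference was -0.01. The largest share of MMP transcripts was that of *Mmp11* in WTK (27.3%) and that of *Mmp14* in IgGK, LepK, IgGL and LepL (23.5%, 26.7%, 25.7% and 21.2%). These ratios count transcripts and say nothing of protein or enzyme activity.

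**Figure D4:**
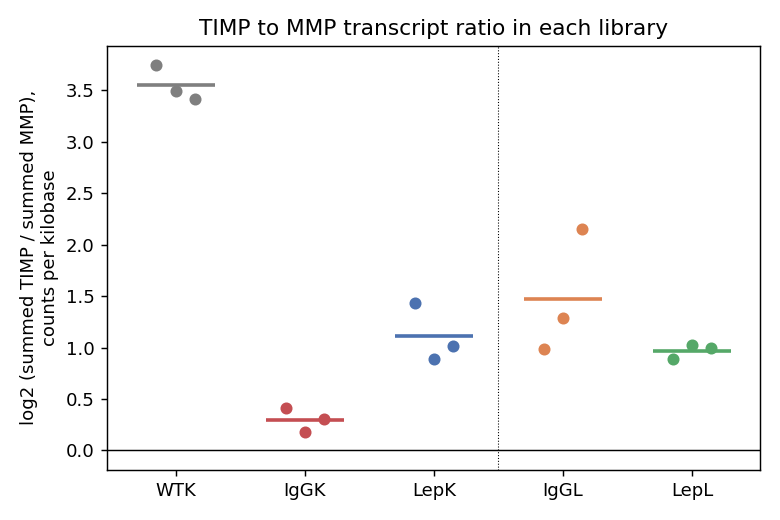
Log2 ratio of summed TIMP to summed MMP transcripts (counts per kilobase) in each library, with the group mean as a bar. WTK libraries lie between 3.42 and 3.75, IgGK libraries between 0.18 and 0.41 and LepK libraries between 0.89 and 1.43, while the lung groups overlap.

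Among 10 ADAM and ADAMTS genes, targets of *Timp3*, 8 rose in IgGK against WTK (median 1.26), where 21.7% of all genes were called higher. *Adam12* and *Adamts4* rose most, by 3.11 and 2.79 on the log2 scale (adjusted p = 2.96e-08 and 0.000175 from edgeR), and *Adam17*, the sheddase of tumor necrosis factor, rose from 31.4 to 51.0 normalized CPM (log2 0.70, adjusted p = 4.31e-06 from edgeR). Their direction was opposite to that of *Timp3*. Under LepAb 4 of the 10 fell in kidney, led by *Adam12* (log2 -1.35, adjusted p = 0.000133 from edgeR) and *Adamts2* (log2 -1.16, adjusted p = 0.00156 from edgeR). Over all genes 5.99% were called lower. In lung 5 of the 10 fell, led by *Adamts4*, an aggrecanase, at -2.50 and *Adam12* at -2.03 (adjusted p = 0.0354 and 0.0444 from edgeR). There 2.36% of all genes were called lower. The 5 lung calls held without IgGL replicate 1, only *Adamts2* was called without LepL replicate 1, and 0 were called when any other lung library was left out. In LepK against WTK 6 of the 10 were still higher, where 15.2% of all genes were called higher. *Adam17* did not pass the fold threshold under LepAb in either organ (log2 -0.39 in kidney and -0.12 in lung).

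A list of other protease inhibitors and of inhibitor-like or NTR-domain proteins also holds *Pcolce* and *Pcolce2*, which enhance procollagen C-proteinase and do not inhibit it. Of 10 genes tested in kidney, 4 rose and 1 fell in IgGK against WTK, where 21.7% of all genes were called higher and 15.6% lower. With 37.3% of all genes called either way, this count is not in itself particular to the list. *Pcolce* was among the 4, from 82.7 to 124 normalized CPM (log2 0.59, adjusted p = 0.000149 from edgeR), with *Spock2* at 1.60 and *Cst3*, cystatin C, at 0.81 (adjusted p = 0.000113 and 9.15e-06 from edgeR). *Pzp*, a broad protease inhibitor of the alpha-2-macroglobulin kind, fell from 238 ± 18 to 32.9 ± 9.78 normalized CPM (log2 -2.86, adjusted p = 5.33e-07 from edgeR). In LepK it rose to 70.0 ± 18.9 (log2 1.09 against IgGK, adjusted p = 0.00408 from edgeR), which remained below WTK (log2 -1.77, adjusted p = 6.05e-05 from edgeR). In LepK against WTK *Spock2* was the 1 gene of the list still higher (log2 1.0, adjusted p = 0.00616 from edgeR), where 15.2% of all genes were called higher. In lung, where 2.36% of all genes were called lower, 1 of 9 genes tested fell, *A2m*, from 8.78 ± 3.90 to 2.07 ± 0.93 (log2 -2.09, adjusted p = 0.042 from edgeR). It was called without IgGL replicate 1 and in none of the other 5 fits with a library left out.

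Of 12 binding partners and receptors tested, 7 rose and 1 fell in IgGK against WTK, where 21.7% of all genes were called higher and 15.6% lower. Among the 7 was *Wnt7a*, with 0 counts over the WTK and 173 over the IgGK libraries, which could come out only as higher. *Cd44*, a hyaluronan receptor, rose by 4.44 and *Lrp1*, an endocytic receptor that clears MMP and TIMP complexes, by 1.50 on the log2 scale (adjusted p = 3.66e-08 and 4.20e-07 from edgeR), while *Kdr*, the endothelial receptor to which TIMP3 binds, fell by 1.20 (adjusted p = 5.81e-06 from edgeR). Under LepAb *Lrp1* and *Cd44* fell in kidney, by 0.82 and 0.80 (adjusted p = 0.000593 and 0.00895 from edgeR), as the 2 called of the 12, where 5.99% of all genes were called lower. Against WTK 6 genes remained higher, *Wnt7a* again among them, and 1 lower. In that comparison 15.2% of all genes were called higher and 7.3% lower. In lung *Lrp1* fell by 1.02 and *Adgra2*, the partner of *Reck*, by 0.74 (adjusted p = 0.0327 for both from edgeR), and *Efemp1*, a fibulin that binds TIMP3, rose by 1.21 (adjusted p = 0.0497 from edgeR). Over all genes 2.36% were called lower and 1.78% higher in lung. These 3 lung calls likewise held without IgGL replicate 1 alone. *Adgra2* rose by 0.58 in IgGK (adjusted p = 0.000822 from edgeR), where *Reck* did not pass the test. *Cd63*, a surface tetraspanin that binds TIMP1, did not pass the thresholds in either organ under LepAb (log2 0.13 in kidney and -0.60 in lung), but the difference between the organs was called (0.76 on the log2 scale, adjusted p = 0.0327 from edgeR). With a library left out it was called in 3 of 12 fits, with values from 0.56 to 0.90. Of the other genes in the lists of targets, inhibitors, partners and inducers, *Mmp12*, *Mmp15*, *Efemp1* and *Adam15* were also called for the organ difference. Their values, as kidney minus lung on the log2 scale, were -2.82, -1.45, -1.28 and 0.67, called in 3, 7, 3 and 11 of 12 fits.

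A list of known inducers of *Timp1* and of their signaling holds cytokines of the interleukin-6 family, their receptors and the transcription factors downstream. It also counts *Socs3*, a target and feedback inhibitor of STAT3 signaling, which is not an inducer. Of 18 tested, 14 rose in IgGK against WTK (median 1.97), where 21.7% of all genes were called higher. Among the 14 were *Lif* at 3.83 and *Socs3* at 3.33 (adjusted p = 1.11e-05 and 7.61e-09 from edgeR). Also among the 14 was *Osm*, with 4 counts over the WTK and 87 over the IgGK libraries, which passed the filter through the injured groups. Under LepAb 7 of the 18 fell (median -0.52), led by *Il1b* at -1.46 and *Socs3* at -0.84 (adjusted p = 0.00744 and 0.00041 from edgeR), where 5.99% of all genes were called lower. Against WTK 13 were higher, *Osm* again among them, where 15.2% of all genes were called higher. The 7 became 4 without IgGK replicate 2. In lung 17 of 19 were lower in value, with a median of -0.48 over the list. Of these 1 was called, *Lif*, lower by 0.96 on the log2 scale (adjusted p = 0.0444 from edgeR), and this call held without IgGL replicate 1 alone. Over all genes 2.36% were called lower in lung.

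Marker genes of several cell types moved with the members, and in bulk tissue fewer cells of a type and less RNA per cell cannot be told apart. The summed level of 8 fibroblast markers was 162 to 212 normalized CPM in WTK, 1025 to 1172 in IgGK and 407 to 659 in LepK, and that of 8 macrophage markers 187 to 214, 1692 to 2142 and 604 to 899. In both lists 8 of 8 markers rose in IgGK against WTK and 7 of 8 fell in LepK against IgGK, and each had counts in all 3 groups. Over all genes 21.7% were called higher and 15.6% lower in the first comparison, and 4.38% higher and 5.99% lower in the second. In IgGK the largest fibroblast values were those of *Col1a2* and *Col1a1* (408 and 342) and the largest macrophage value that of *Lyz2* (1111). The sum of 8 injured tubule markers was 560 to 616, 6994 to 7423 and 3047 to 4441, in the order of *Timp1*, with 8 of 8 called higher in IgGK and 6 of 8 lower in LepK. Its largest part was *Spp1*, at 5712 ± 166 in IgGK and 2871 ± 623 in LepK. The 8 neutrophil markers summed to 2.01 to 2.24, 16.9 to 25.5 and 6.91 to 9.67, with *Ly6g* and *Camp* at 0 in IgGK. The sum of 8 proximal tubule markers followed that of *Timp3*, at 25541 to 27384 in WTK, 5713 to 8292 in IgGK and 11142 to 15580 in LepK, where 8 of 8 fell with injury and 7 of 8 rose under LepAb. Within LepK, replicate 1 had the lowest *Timp1*, the highest *Timp3*, the lowest fibroblast, macrophage and injured tubule sums and the highest proximal tubule sum. Not all lists followed *Timp1* or *Timp3*. Of 7 endothelial markers 1 was called higher and 2 lower in IgGK, and 0 under LepAb, where all were higher in value. Of 7 smooth muscle and pericyte markers 3 were called higher and 1 lower in IgGK. Under LepAb 1 of them was called higher, and in value 5 were higher and 2 lower. Of 6 podocyte and 5 mesothelial markers 3 and 4 were called higher in IgGK, and 1 of each lower under LepAb. The part of these cell types in the changes of the members was not tested.

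In lung the fibroblast sum was 5361 to 6066 normalized CPM in IgGL and 2337 to 3187 in LepL, with 4 of 8 markers called lower, where 2.36% of all genes were called lower and 1.78% higher. Its largest parts were *Col1a1* and *Col1a2*, at 2244 and 2113 in IgGL and 971 and 1040.5 in LepL. In value 7 markers were lower in LepL and 1 was higher, *Dcn* (176 in IgGL and 196 in LepL). The sum of 8 neutrophil markers was 152, 173 and 378 in the 3 IgGL libraries and 58.6 to 89.7 in LepL, with 4 of 7 tested called lower and 8 of 8 above 0. IgGL replicate 3, which had the highest *Timp1*, also had the highest neutrophil sum. The sum of 6 alveolar type 2 markers ran the other way, at 12045, 8112 and 6531 in IgGL and 17394 to 23668 in LepL, with 3 of 6 called higher. Its largest part was *Sftpc*, at 5335 ± 2060 in IgGL and 14071 ± 2495 in LepL. The macrophage sum, 8016 to 8281 in LepL and 3834 to 6673 in IgGL, was carried by *Lyz2*, at 7169 ± 199 and 3644 ± 1575, which was not called (log2 0.98, adjusted p = 0.0752 from edgeR). The other 7 macrophage markers were lower in value in LepL, with a list median of -0.67 (log2 fold change), and 1 was called lower, *Mrc1* (log2 -1.06, adjusted p = 0.0388 from edgeR). When any lung library except IgGL replicate 1 was left out, 0 to 1 fibroblast markers and 0 of the neutrophil, alveolar type 2 and macrophage markers were called. With all lung libraries kept, 0 of 7 endothelial and 0 of 6 alveolar type 1 markers were called. Of 7 smooth muscle and pericyte markers 2 were called lower. Of 5 mesothelial and 5 tested adipocyte markers 2 each were called higher. Cardiac muscle markers, whose tissue also expresses *Timp4*, summed to 141 to 213 in IgGL and 202 to 578 in LepL. The 6 adipocyte markers in kidney summed to 88.9 to 201 in WTK, 490 to 811 in IgGK and 214 to 455 in LepK, mostly from *Cfd* and *Fabp4*. Of these markers 5 were called higher in IgGK than in WTK, whereas *Lep* itself was called lower (log2 -1.82, adjusted p = 0.00681 from edgeR), except when WTK replicate 3 was left out. Over all genes 21.7% were called higher and 15.6% lower in that comparison. The part of these cells in the members' values was not tested.

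Across the 9 kidney libraries the level of *Timp1* (log2 normalized CPM) had a Pearson r of 0.99 with *Timp2* and of -0.99 with *Timp3*, a description of libraries that share the same group structure. The genes most like *Timp1* in kidney, of 15604 compared, were *Abcc3*, *Apoe*, *Itpr3*, *Arhgef17* and *Clec4a1* (r = 0.997 to 0.999). Those most like *Timp2* were *Arhgef17*, *Tubb2a*, *Scarf2*, *Aif1* and *Gsto1*, and those most like *Timp3* were *Abca3*, *Ganab*, *Nbr1*, *M6pr* and *Rdx*. *Arhgef17* was thus among the 5 nearest genes of both members that rose. For *Timp4* the nearest genes in kidney were *Rn7sk*, *Hacl1*, *Vamp4*, *Ado* and *Thg1l*, and for *Reck* they were *S100pbp*, *Gm44597*, *Nrf1*, *Cactin* and *A030005L19Rik*, with r of 0.936 at most. Across the 6 lung libraries *Timp1* was most like *Rhoc*, *Morf4l2*, *Tubb6*, *P4hb* and *Itgb1* (r = 0.998 to 0.999) and had an r of -0.93 with *Reck*, which in turn was most like *Sim2*, *Tspan18*, *Prrg1*, *Ehd4* and *Ckm*. *Timp2* in lung was most like *Klhl20*, *Mbtps1*, *Cdc42ep1*, *Atg4c* and *Trrap*, *Timp3* most like *App*, *Gm48990*, *Ubl3*, *Ttc7b* and *Prr16*, and *Timp4* most like *Aoc2*, *Cpsf7*, *Cox18*, *Ubtf* and *Tmem156*. These genes were picked as the highest values among all compared, so their r carries no p.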

How the data were processed

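Poly(A)-selected, non-directional libraries were sequenced from kidney and lung of individual mice. The authors deposited raw read counts per gene, not normalized, and FPKM values, which are further divided by gene length. Per the labels the build was GRCm39 (mm39), and the aligner and counting tool are not given in the sources used here. The deposited table also holds the authors' group means, log2 fold changes and p-values, which were not used. Groups were taken from the sample titles and treatment labels. A further name in the descriptions gives another organ or treatment than the title for most samples and was set aside, since titles, treatment labels and library codes match each other and organ markers matched the titles. The labels give each sample a title and a library code but no animal, and samples were taken as separate mice as the study states.

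The count models were fitted with edgeR 4.0.16 (with limma 3.58.1) in R 4.3.3, and DESeq2 1.42.0 served as an alternative. Genes were kept by filterByExpr (minimum count 10, minimum total count 15) and scaled by TMM factors (0.844 to 1.18 in kidney, 0.965 to 1.02 in lung). glmQLFit and glmQLFTest were fitted to the 9 kidney and the 6 lung libraries apart, and the organ difference to 12 libraries. p-values were adjusted over all genes tested. Shares and ratios were compared with exact two-sided permutation tests of the means. Counting intervals are exact binomial and cover counting error only. Replicates differed beyond sampling noise (chi-square of 6.73 to 87.4 per gene). The procedure was tested on simulated data.

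The members, the lists and the comparisons were chosen with earlier results of these data known. The text names the members, genes overlapping them, direct partners, and from each list the called genes with the largest change (up to 2 in each direction, mean of at least 1 CPM), as well as the 5 genes most correlated with each member (log2 CPM, prior count 2). *Mmp3* was named after its value was seen. The alternatives were RLE, upper quartile and library-size scaling, DESeq2, no filter, only genes with a mean of 1 CPM or more, fits restricted to the groups compared, all libraries in 1 fit, the replicate number as a block, and leaving out each library. The calls of list genes and of all genes under these alternatives were added after the data were seen. For shares and ratios they were counts without length, the FPKM values, the block and leaving out each library.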

Additional observations from a re-analysis of the deposited data

How the results depend on the processing

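Of 372 results recomputed for members under an alternative, 347 kept their direction and their side of the threshold, 6 lost a call, 13 gained one and 6 changed sign. In LepK against IgGK the members called lower became 2, as *Timp2* joined *Timp1*, with library size alone (-0.67), no filter (-0.50), a mean of at least 1 CPM (-0.50) and the replicate block (-0.51), and were 1 to 2 when a library was left out, with 2 without IgGK replicate 1, LepK replicate 2 or LepK replicate 3. In LepL against IgGL the members called lower were 0 under the replicate block, where *Timp1* had -2.09 (adjusted p = 0.0955 from edgeR, the highest of 8 settings that kept all libraries, 7 of which called it), and 0 to 1 when a library was left out, where *Timp1* ranged from -2.70 to -1.61 and was called in 1 of 6 fits; the members called higher were 0 to 1. In the organ difference the members called higher became 2 with no filter, and were 0 to 1 with a library left out, as were those called lower. The changes of sign were all among values that were not called: *Reck* in LepK against WTK at -0.000139, -0.0581 and -0.0817 without WTK replicate 1, WTK replicate 2 and LepK replicate 2, *Timp4* there at -0.139 and -0.0919 without WTK replicate 2 and LepK replicate 1, and *Timp2* in lung at 0.0205 without IgGL replicate 2. With a library left out these ranged from -0.0817 to 0.153 for *Reck*, from -0.139 to 0.32 for *Timp4* and from -0.237 to 0.0205 for *Timp2*. The cause was not tested.

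The replicate numbers are shared between groups, and deviations of same-numbered libraries had r of -0.0553 to 0.182. The highest were those of IgGK and LepK replicates 1 and 2 (0.182 and 0.165). Libraries of different numbers were not compared, so these values cannot show whether the numbers pair the mice. Over all genes the block left 4 called in lung, against 812 without it and 2350 by DESeq2. With a library left out, all-gene calls ranged from 1303 to 2260 in LepK against IgGK and from 352 to 3763 in the organ difference, against 2032 and 1531 with all libraries. Scaling by library size without factors shifted the all-gene median to 0.48 (IgGK against WTK), -0.19 (LepK against IgGK) and 0.29 (LepK against WTK). The 4 differences in the share of *Timp1* and the 4 in the TIMP to MMP ratio kept their sign throughout, and the lung ratio fell closest to 0, at -0.0111, from counts without length. At this depth *Timp4* in kidney rests on 15 to 38 counts per library.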
